A study of Homo sapiens with 4 samples.

Results

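The death receptors and the proteins that carry their signal inside the cell were measured as mRNA in RKO cells, a human colorectal cancer line, with and without knockdown of the chromatin remodeller CHD7. The 10 genes were chosen by name, with earlier results of these data known. They were found by their symbol in the deposited gene tables, which hold 15357 genes. All 10 had a row, and all 10 were among the 11955 genes that passed the filter on low counts and were tested. They are 5 receptors (FAS, TNFRSF10A, TNFRSF10B, TNFRSF10D and TNFRSF1A) and 5 proteins inside the cell (FADD, TRADD, CASP8, CASP10 and CFLAR).

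Death receptors are members of the TNF receptor superfamily that sit in the cell membrane and bind ligands such as FasL, TRAIL and TNF. Bound receptors gather the adaptor FADD, which brings the initiator caspases CASP8 and CASP10 together so that they cleave and activate each other, and the executioner caspases follow. CFLAR, also called c-FLIP, resembles CASP8 without its protease activity and limits this step, and TRADD connects TNFRSF1A to survival signalling as well as to death. In colorectal cancer cells this route has been studied mainly through TRAIL and FasL, and some genes of the family are known targets of p53, which is wild type in RKO.

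The groups were 2 vector samples, from RKO cells infected with a lentivirus for a control shRNA, and 2 shCHD7_2 samples, from RKO cells infected with a lentivirus for the second of the study's CHD7 shRNAs, and stable expression was obtained in both. A single shRNA sequence was profiled, so loss of CHD7 and any other effect of that sequence cannot be told apart. Polyadenylated RNA was sequenced. The labels do not say that the 2 samples of a group came from separate cultures or infections, so p-values measure the spread between these samples, which may be technical.

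The targeted gene fell in both knockdown samples. CHD7 had expected counts of 1326 and 1436 in the vector samples and 890 and 800 in the shCHD7_2 samples, a log2 fold change of -0.74 ± 0.088 (SE, n = 2 per group; adjusted p = 4.2e-06, edgeR quasi-likelihood test with Benjamini-Hochberg adjustment over the 11955 genes). Library totals lay between 15734666 and 16068642. Of the colon epithelial markers, KRT18 had 51.9 to 56.1 FPKM in the vector samples and KRT8 had 12.3 to 13.35. EPCAM had 6.53 and 6.57 and CDX2 had 4.58 and 5.15, while CDH1 and KRT20 had at most 1 count in any sample. KRT19 and VIL1 were not analysed here. Of 8 leukocyte markers, 4 were in the table, and their summed level of 495 and 530 FPKM in the vector samples and 602 and 611 FPKM in the shCHD7_2 samples was almost wholly CD68, which had a log2 fold change of 0.20 (adjusted p = 0.0624, edgeR). Its part in the results was not tested. The 3 fibroblast markers in the table summed to at most 0.13 FPKM in any sample and the 2 endothelial markers to at most 0.03.

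In the vector cells TNFRSF10B and TNFRSF10D, 2 of the receptors for TRAIL, led the set. FPKM, a level per length of transcript and per depth of library, was 63.6 and 64.4 for TNFRSF10B, 41.4 and 44.1 for TNFRSF10D, and 31.8 in both samples for TNFRSF1A. CASP8 followed with 21.4 and 22.5, then FADD with 14.6 and 15.03, TNFRSF10A with 13.3 and 13.1, and CFLAR with 10.7 and 11.4. FAS had 6.69 and 7.11, and TRADD and CASP10 were the lowest, with 3.24 and 3.47, and 2.74 and 2.17. No 2 neighbours in this order overlapped in the vector samples. The order was close to this in the shCHD7_2 samples, but there TNFRSF10D (35.1 to 37.6) overlapped TNFRSF1A (33.7 to 35.1), and TNFRSF10A (13.8 to 17.8) overlapped FADD (13.4 to 14.8). In bulk RNA, a change in every cell and a change in the number of cells that express a gene cannot be told apart.

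**Figure D1:**
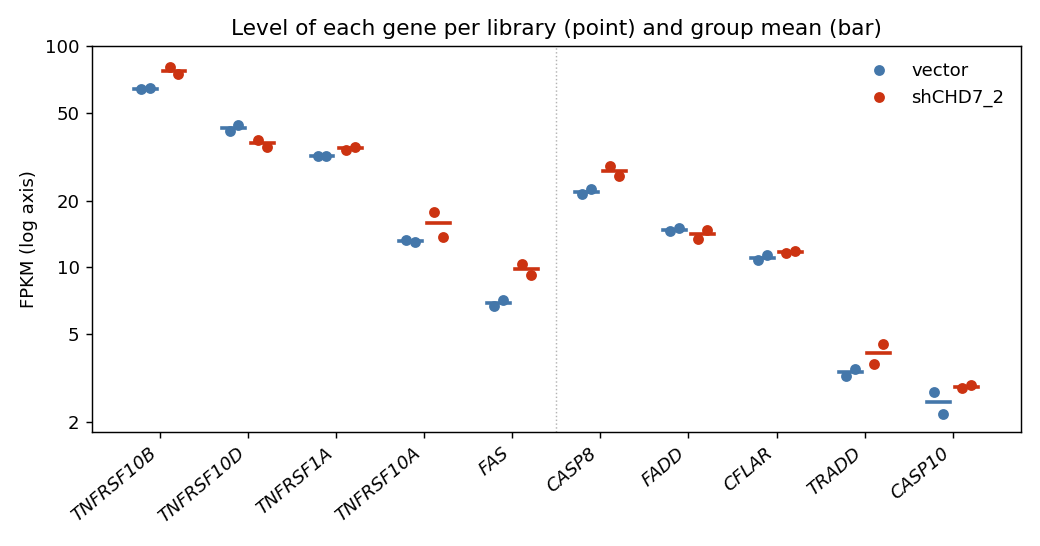
FPKM (log axis) of each of the 10 genes in every sample, vector in blue and shCHD7_2 in red, with a bar at the group mean; receptors stand left of the dotted line and proteins inside the cell right of it, each ordered by level. TNFRSF10B was the highest in both groups and CASP10 the lowest, and FAS showed the widest gap between the groups.

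Between the groups, 3 of the 10 genes rose (FAS, TNFRSF10B and CASP8), 1 fell (TNFRSF10D) and 6 did not pass the adjusted p of 0.05. Of all genes tested, 11.5% passed that threshold (4.94% higher and 6.54% lower), and of the 10 members 40% passed. None of the members passed the threshold together with a fold change of at least 1.5, which 2.88% of all genes tested did in edgeR. DESeq2 also gave 0. At an unadjusted p under 0.05, 5 members passed in edgeR, against 25.4% of all genes tested, and 0 of those 5 reached a fold of 1.5. Normalised levels (CPM, counts scaled to a common library size) did not overlap between the groups for 9 of the 10 members, against 53.7% of all genes tested. Which member overlapped depended on the scaling, with CFLAR overlapping in CPM and FADD in FPKM. The median log2 fold change was 0.22 over the members and 0.00056 over all genes tested. Because the members were chosen with earlier results of these data known, these contrasts are a description and cannot show that the set stands out.

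**Figure D2:**
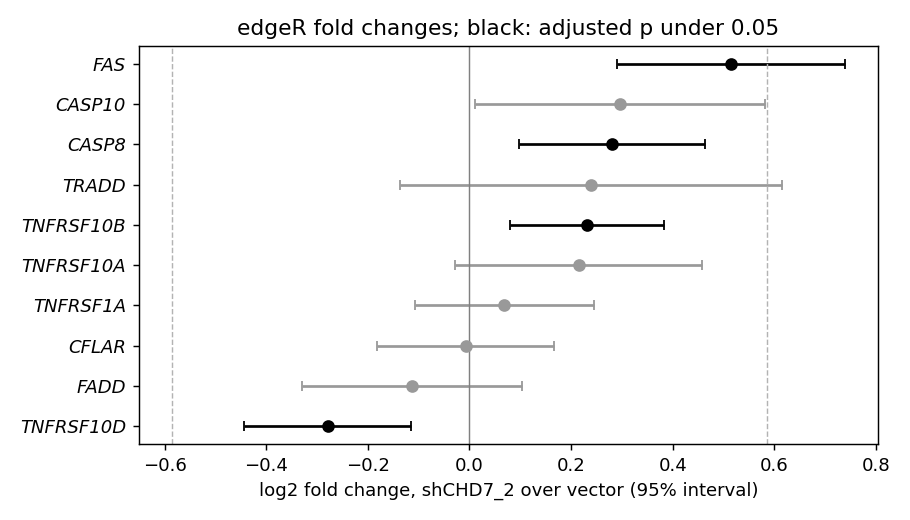
Log2 fold change (shCHD7_2 over vector) of each gene from edgeR with its 95% interval; black marks an adjusted p under 0.05, and the dashed lines mark a fold of 1.5 in either direction. FAS lies farthest to the right at 0.51 and TNFRSF10D farthest to the left at -0.28, and the intervals of FAS and TRADD are those that reach the dashed line.

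FAS, the receptor for FasL, showed the largest change of the 10. It is on the plus strand at chr10:88990582-89015785 (GRCh38, GENCODE 29). Its level was 18.0 and 19.3 CPM in the vector samples and 27.8 and 25.4 CPM in the shCHD7_2 samples, so that both knockdown samples lay above both vector samples. The log2 fold change was 0.51 ± 0.108 (SE, n = 2 per group), with a 95% interval of 0.29 to 0.74 and an adjusted p of 0.00272 in edgeR, a rise of 42.8%. The call held without each of the 4 samples in turn. It was lost only where no filter on low values was used (adjusted p = 0.0695 in edgeR and 0.126 in limma on FPKM). The lowest adjusted p of the alternatives, 8.8e-08 in edgeR, came from a crossed pairing of samples with unlike replicate numbers. That pairing was chosen after seeing the data, and with library totals in edgeR the adjusted p was 0.00132. The expected counts of FAS were not whole numbers (280.01 and 303.75 in the vector samples), and RSEM gives such values where it divides reads between genes. FAS overlaps ACTA2 on the opposite strand, and whether the counting used strand is not given in the sources used here. ACTA2, chosen after its values were seen, had 34 and 33 counts in the vector samples and 55 and 66 in the shCHD7_2 samples (log2 fold change 0.82, adjusted p = 0.0258, edgeR). FAS had 280 and 304 counts in the vector samples and 446 and 406 in the shCHD7_2 samples. Reads from the stretch that the 2 genes share cannot be told apart where strand was not used, and the part of this overlap was not tested.

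Because p53 response elements are known in this family, and one is known in the first intron of FAS, the RefSeq start windows of the members (250 bases before to 50 after each annotated start, GRCh38.p14) were searched for the p53 half-site consensus, by its exact letters on both strands. The table held 12 windows for 5 members (FAS, TNFRSF1A, FADD, CASP8 and CFLAR). A match was present in 2 of the 12, against 6.63% of all 35116 windows. An element in the first intron of FAS was known beforehand, and 2 of the FAS windows overlap. This contrast is therefore a description and tests nothing. The windows with a match, in FAS and CASP8, are shown, and capitals mark the matched letters. TNFRSF10B, which rose, and TNFRSF10D, which fell, had no window and were not searched.

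FAS, chr10:88991181-88991480, plus strand: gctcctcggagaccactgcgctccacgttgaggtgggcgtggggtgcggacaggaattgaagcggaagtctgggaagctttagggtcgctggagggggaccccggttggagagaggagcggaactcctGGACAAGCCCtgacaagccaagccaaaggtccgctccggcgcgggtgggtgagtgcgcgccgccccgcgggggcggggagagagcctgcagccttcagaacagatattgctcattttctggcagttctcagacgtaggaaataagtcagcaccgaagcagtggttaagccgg

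CASP8, chr2:201257785-201258084, plus strand: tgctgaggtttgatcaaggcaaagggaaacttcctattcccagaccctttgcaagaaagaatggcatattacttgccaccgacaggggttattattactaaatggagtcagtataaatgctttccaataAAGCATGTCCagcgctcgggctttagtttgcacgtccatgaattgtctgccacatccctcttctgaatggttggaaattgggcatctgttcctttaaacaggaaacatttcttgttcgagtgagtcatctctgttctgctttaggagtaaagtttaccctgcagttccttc

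The match in FAS lies at chr10:88991309-88991318 and that in CASP8 at chr2:201257914-201257923, and in GENCODE 29 each is within an intron of its gene, upstream of an internal start. The other 2 windows of FAS and the other 2 of CASP8 held none, and neither did the windows of TNFRSF1A, FADD and CFLAR. The NF-kB consensus was present in the same FAS window and in 1 of the 4 windows of CFLAR, against 11.3% of all windows. The AP-1, GAS, GC box and E-box (CAGCTG) motifs were searched as well. AP-1 matched the CASP8 window shown and other windows of FAS, FADD, CASP8 and CFLAR, against 7.71% of all windows. GC box matches lay in windows of FAS, FADD, CASP8 and CFLAR (45% of all windows). A GAS match lay in CASP8 (7.66%) and an E-box match in CFLAR (17.9%). A match of letters is a description of the window and no measure of binding.

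The TRAIL receptors moved in different directions. TNFRSF10A (DR4) and TNFRSF10B (DR5) carry a death domain, whereas TNFRSF10D (DcR2) has a truncated one and binds TRAIL without passing on the death signal. The 3 genes lie in 1 cluster on the minus strand of chromosome 8, TNFRSF10B at 23020133 to 23069179, TNFRSF10D at 23135588 to 23164030 and TNFRSF10A at 23190452 to 23225126 (GRCh38, GENCODE 29).

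TNFRSF10B had 254 and 258 CPM in the vector samples and 310 and 292 CPM in the shCHD7_2 samples. Both shCHD7_2 samples were above both vector samples, and the gap within the shCHD7_2 group was wider than within the vector group. The log2 fold change was 0.23 ± 0.0731 (SE, n = 2 per group; 95% interval 0.08 to 0.38; adjusted p = 0.0417, edgeR), a rise of 17.4%. The call was lost with no filter on low values (adjusted p = 0.139 in edgeR and 0.123 in limma). It was also lost without vector replicate 1 (log2 fold change 0.22), vector replicate 2 (0.24) or shCHD7_2 replicate 1 (0.18). Each of these fits assumes that a lone sample varies like the other group. The lowest adjusted p of the alternatives, 1.3e-05 in edgeR, came from the crossed pairing, chosen after seeing the data. With library totals in edgeR it was 0.0148. RHOBTB2, which overlaps TNFRSF10B on the opposite strand, had a log2 fold change of 0.03 (adjusted p = 0.883, edgeR).

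TNFRSF10D, the decoy, had 142 and 152 CPM in the vector samples and 125 and 117 CPM in the shCHD7_2 samples. It was the only one of the 10 genes that fell by the test, and the groups did not overlap. The log2 fold change was -0.28 ± 0.0794 (SE, n = 2 per group; 95% interval -0.44 to -0.11; adjusted p = 0.0236, edgeR). The direction held in every alternative tried, but the call was lost when libraries were scaled by their totals (adjusted p = 0.0566, edgeR). The same held in limma on FPKM (0.0709) and with no filter on low values (0.127 in edgeR and 0.179 in limma). It was also lost without vector replicate 1 (log2 fold change -0.33), vector replicate 2 (-0.23) or shCHD7_2 replicate 2 (-0.24). The lowest adjusted p, 5.2e-07 in edgeR, came from the crossed pairing, chosen after seeing the data.

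TNFRSF10A had 21.5 and 21.1 CPM in the vector samples and 27.7 and 21.7 CPM in the shCHD7_2 samples. Only replicate 1 of the knockdown stood clear of the vector samples, and the other lay just above them. The log2 fold change of 0.21 ± 0.117 (SE, n = 2 per group) did not pass (95% interval -0.03 to 0.46; adjusted p = 0.264, edgeR). Without shCHD7_2 replicate 2 it was 0.38 (adjusted p = 0.0373), and without shCHD7_2 replicate 1 it was 0.023, with adjusted p between 0.0373 and 0.946 over the alternatives.

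Levels of the decoy were also set beside those of the signalling receptors within each sample. The FPKM of TNFRSF10D divided by the sum of TNFRSF10A and TNFRSF10B was 0.539 and 0.570 in the vector samples and 0.385 and 0.396 in the shCHD7_2 samples. The ratio was lower in both knockdown samples than in either vector sample, with means of 0.554 ± 0.0221 and 0.390 ± 0.00809 (SD, n = 2) and a log2 difference of -0.50. With 2 samples a group the exact two-sided permutation test cannot go below 0.33, which is the p it gave.

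TNFRSF10C (DcR1), the other membrane decoy for TRAIL, had between 1 and 5 counts in each sample and was not tested. TRAIL itself, under its symbol TNFSF10, and FasL, under FASLG, were not analysed here.

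TNFRSF1A, the main receptor for TNF and the last of the 5, is on the minus strand at chr12:6328757-6342114. It had 67.3 and 67.6 CPM in the vector samples and 68.9 and 72.5 CPM in the shCHD7_2 samples. The samples of the groups did not overlap, but the log2 fold change was 0.07 ± 0.0848 (SE, n = 2 per group) and the 95% interval of -0.11 to 0.24 lay inside a fold of 1.5 in both directions (adjusted p = 0.667, edgeR).

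Of the proteins inside the cell, 1 of 5 passed the test, against 11.5% of all genes tested. CASP8, CASP10 and CFLAR are neighbours on the plus strand of chromosome 2, at chr2:201116104-201176687 for CFLAR, chr2:201182881-201229406 for CASP10 and chr2:201233443-201287711 for CASP8. They belong to 1 gene family, with paired death effector domains that bind FADD.

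CASP8, the initiator caspase, had 48.4 and 50.3 CPM in the vector samples and 62.6 and 57.3 CPM in the shCHD7_2 samples. Both knockdown samples were above both vector samples. On the log2 scale the fold change was 0.28 ± 0.0885 (SE, n = 2 per group; 95% interval 0.10 to 0.46; adjusted p = 0.0419, edgeR), a rise of 21.4%. The call was lost in DESeq2 (adjusted p = 0.129) and with no filter on low values (0.154 in edgeR and 0.155 in limma). It was also lost without vector replicate 1 (log2 fold change 0.25), vector replicate 2 (0.31) or shCHD7_2 replicate 1 (0.21). The lowest adjusted p of the alternatives, 7.8e-05 in edgeR, came from the crossed pairing, chosen after seeing the data. With library totals in edgeR it was 0.0187.

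CASP10, its close relative, was the lowest of the 10 per length. It had 10.6 and 10.2 CPM in the vector samples and 12.8 CPM in both shCHD7_2 samples, which lay above the vector samples. At 161 to 205 counts a sample, a log2 fold change of 0.30 ± 0.138 (SE, n = 2 per group; 95% interval 0.01 to 0.58), did not pass after adjustment (adjusted p = 0.179, edgeR). On log2(FPKM + 1) it was 0.18 in limma (adjusted p = 0.374). The lowest adjusted p of the alternatives, 0.0624 in edgeR, came from the crossed pairing.

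CFLAR, the inhibitor of CASP8 activation, was the member whose CPM overlapped between the groups. It had 75.9 and 81.2 CPM in the vector samples and 78.8 and 77.6 CPM in the shCHD7_2 samples, with both knockdown samples between the vector samples. Its FPKM did not overlap, at 10.74 and 11.4 in the vector samples and 11.59 and 11.85 in the shCHD7_2 samples. The log2 fold change was -0.01 ± 0.0841 (SE, n = 2 per group; 95% interval -0.18 to 0.17; adjusted p = 0.973, edgeR), and its sign turned to 0.037 with library totals and to 0.076 in limma on FPKM. CFLAR has many transcripts, and counts of the gene do not separate its long and short forms.

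The level of CFLAR per length relative to CASP8 was 0.501 and 0.507 in the vector samples and 0.406 and 0.459 in the shCHD7_2 samples. Both knockdown samples were below both vector samples, with means of 0.504 ± 0.00389 and 0.432 ± 0.0374 (SD, n = 2) and a log2 difference of -0.22. Without shCHD7_2 replicate 1 the difference was -0.14, and over the samples left out it reached -0.31. The exact two-sided permutation p was 0.33, the smallest that 2 samples against 2 allow.

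**Figure D3:**
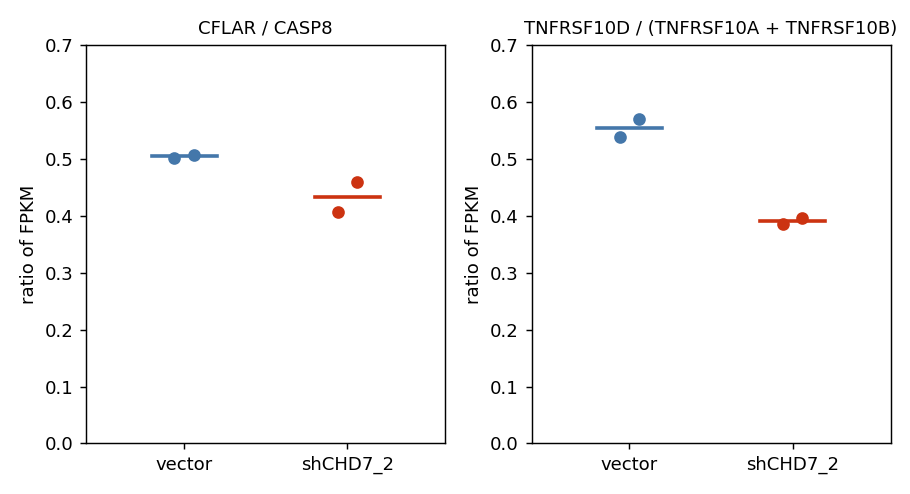
Ratios of FPKM within each sample (points) with the group mean (bar), for CFLAR over CASP8 and for TNFRSF10D over the sum of TNFRSF10A and TNFRSF10B. Both ratios were lower in the 2 shCHD7_2 samples than in the 2 vector samples, with mean ratios of 0.432 against 0.504 and of 0.390 against 0.554.

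The adaptors did not pass the test. FADD, at chr11:70203163-70207390 on the plus strand, had 25.1 and 25.8 CPM in the vector samples and 22.3 and 24.8 CPM in the shCHD7_2 samples (log2 fold change -0.11 ± 0.105, SE, n = 2 per group; adjusted p = 0.545, edgeR). TRADD, at chr16:67154180-67160298 on the minus strand, had 5.15 and 5.38 CPM in the vector samples and 5.61 and 6.83 CPM in the shCHD7_2 samples (log2 fold change 0.24 ± 0.181, SE, n = 2 per group; adjusted p = 0.443, edgeR). In CPM, both FADD samples of the knockdown lay below the vector samples and both TRADD samples above them. In FPKM the FADD samples overlapped, with 14.6 and 15.03 in the vector samples and 13.42 and 14.79 in the shCHD7_2 samples. The interval of TRADD, -0.14 to 0.61, was the widest of the 10 genes. TRADD also overlaps FBXL8 on the opposite strand, which had 15 to 30 counts in each sample and a log2 fold change of 0.25 (adjusted p = 0.722, edgeR).

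The 4 calls were not equally stable. Of 140 fits of the members (10 genes under 14 alternatives), 108 kept both direction and side of the threshold, 24 lost a call, 2 gained one and 6 turned sign, all 6 in CFLAR. Among all genes tested, 43% of those past the threshold were higher in the main fit and 59.1% when libraries were scaled by their totals, and the median log2 fold change of all genes then moved to 0.045.

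**Figure D4:**
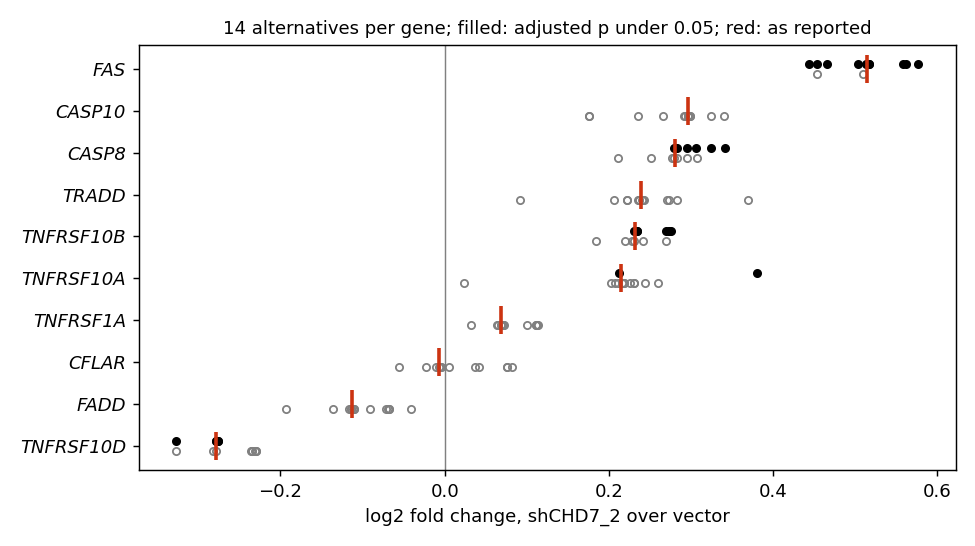
Log2 fold change (shCHD7_2 over vector) of each gene under each of 14 alternatives (circles; filled where the adjusted p is under 0.05) and as reported (red bar). FAS is filled in 12 of the 14, whereas TNFRSF10D, at log2 fold changes between -0.33 and -0.23, is filled in 5, and the values of CFLAR fall on both sides of 0.

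The rest of the pathway was read from 6 lists of other genes, 74 in all, of which 67 were in the table and 60 were tested. Of those 60, 5 were higher and 3 lower past the adjusted p of 0.05, or 13.3% against 11.5% of all genes tested. The median log2 fold change of the 60 was 0.030. Only TNFSF15 and CXCL8 also reached a fold of 1.5.

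Among the ligands, 2 of 6 were tested and 1 rose. TNFSF15 (TL1A), the ligand of the death receptor TNFRSF25, had 6.12 and 6.21 CPM in the vector samples and 14.1 and 12.7 CPM in the shCHD7_2 samples, a rise of 117% (log2 fold change 1.12 ± 0.151, SE, n = 2 per group; adjusted p = 2.3e-05, edgeR). Its knockdown samples were both above the vector samples by a wide margin. The other ligand tested, TNFSF12, lay lower in both knockdown samples and did not pass. It had 10.3 and 9.12 CPM in the vector samples and 7.61 and 7.90 CPM in the shCHD7_2 samples (log2 fold change -0.32, adjusted p = 0.186, edgeR). FASLG, TNFSF10 and TNF had no values to analyse here, and LTA did not pass the filter.

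Of the other receptors and decoys, 5 of 10 were tested and 1 rose, or 20% of those tested against 11.5% of all genes tested. TNFRSF21 (DR6), a death receptor best known in neurons and lymphocytes, had 24.1 and 22.8 CPM in the vector samples and 30.4 and 30.3 CPM in the shCHD7_2 samples (log2 fold change 0.37, adjusted p = 0.0155, edgeR). The other 4 had log2 fold changes between -0.29 and -0.04 and none of them passed. TNFRSF1B, TNFRSF10C and EDAR did not pass the filter, and TNFRSF11B and NGFR were not analysed here.

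All 28 partners of the receptor complexes were tested, and 1 rose and 3 fell, or 14.3% against 11.5% of all genes tested. BIRC3 (cIAP2), a ubiquitin ligase of the TNF receptor complex and itself a target gene of NF-kB, had 18.6 and 19.4 CPM in the vector samples and 25.2 and 24.9 CPM in the shCHD7_2 samples (log2 fold change 0.40, adjusted p = 0.0164, edgeR). PEA15, a protein with a death effector domain that can keep FADD and CASP8 apart, had 345 and 334 CPM in the vector samples and 265 and 271 CPM in the shCHD7_2 samples (log2 fold change -0.34, adjusted p = 0.00272, edgeR). FAF1, a FAS-binding protein, and CASP8AP2, a CASP8-binding protein with roles in histone gene expression, had log2 fold changes of -0.32 and -0.32 (adjusted p = 0.0172 and 0.0417, edgeR).

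Of the executioners and links to the mitochondria, 11 genes are given here, with log2 fold changes between -0.17 and 0.26. The median was 0.15, and none of these 11 passed the adjusted p in edgeR as reported or in DESeq2 (1 had an unadjusted p under 0.05 in edgeR). That gene, PARP1, a DNA repair enzyme that caspases cleave, was named after its values were seen and had a log2 fold change of 0.22 (adjusted p = 0.0512, edgeR). It did pass in edgeR with DESeq2 size factors, with library totals, with a CPM of at least 1 or with the crossed pairing, and in limma on filtered FPKM. BID, which CASP8 cleaves to reach the mitochondria, had the lowest value of the 11, a log2 fold change of -0.17 (adjusted p = 0.282, edgeR).

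Of the necroptosis genes, 2 of 4 were tested and 1 rose, or 50% of those tested against 11.5% of all genes tested. PGAM5, a mitochondrial phosphatase, had a log2 fold change of 0.29 (adjusted p = 0.0257, edgeR). RIPK3 was not analysed here and ZBP1 did not pass the filter. Of the NF-kB targets, 12 of 15 were tested and 1 rose, or 8.33% against 11.5% of all genes tested. CXCL8 (interleukin 8) had 7 and 5 counts in the vector samples and 44 and 24 in the shCHD7_2 samples (log2 fold change 2.45 ± 0.431, SE, n = 2 per group; adjusted p = 5.1e-04, edgeR), which rests on few reads. The median of the 12 was 0.030. CXCL1 and CCL20 did not pass the filter and IL6 was not analysed here.

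TNFSF15 and CXCL8 kept their calls without each of the 4 samples in turn, and the other 6 calls did not. Without vector replicate 1 the adjusted p in edgeR was 0.0746 for PEA15, 0.0876 for CASP8AP2, 0.149 for PGAM5, 0.0584 for TNFRSF21 and 0.128 for BIRC3. Without vector replicate 2 it was 0.296 for FAF1, 0.337 for CASP8AP2, 0.243 for PGAM5, 0.202 for TNFRSF21 and 0.0785 for BIRC3, without shCHD7_2 replicate 1 it was 0.0508 for FAF1, and without shCHD7_2 replicate 2 it was 0.218 for CASP8AP2 and 0.175 for PGAM5. The direction of all 8 genes held in every alternative that gave them a value, with adjusted p of at most 0.0637 for TNFSF15 and 0.126 for CXCL8. On log2(FPKM + 1), a scale that shrinks changes of low genes, limma gave TNFSF15 0.68 and CXCL8 0.89.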

How the data were processed

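RNA was sequenced in 4 samples of RKO cells, 2 vector and 2 shCHD7_2, grouped by their labels. The authors deposited expected counts per gene, not normalised, and FPKM values, which the authors had scaled for length and depth. The submitters' processing notes name hg38, Bowtie2, RSEM and DESeq2, and give no versions. RSEM divides reads among similar or overlapping genes, and 13.6% to 14.7% of the counts of a sample were not whole. Counts were rounded, filtered with filterByExpr of edgeR 4.0.16 (R 4.3.3), scaled by TMM and tested by its quasi-likelihood test, and p-values were adjusted by Benjamini-Hochberg over 11955 genes. The biological coefficient of variation was 0.0579. The threshold was an adjusted p of 0.05, alone or with a fold of 1.5, which the study used. Standard errors came from the F statistic. Ratios used FPKM and an exact permutation test. Alternatives used DESeq2 1.42.0, limma 3.58.1 on log2(FPKM + 1) or log2(FPKM + 0.1) at a mean FPKM of at least 1 or with no filter, other scalings and filters, a replicate block, and each sample left out. The scripts were tested on simulated data.

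Members and lists were chosen with earlier results of these data known. One gene of the lists is not reported here, and the lists' counts leave it out. Named genes are the 10 members, CHD7, and up to 5 genes past the threshold per list and direction. TNFRSF10C, BID, RHOBTB2, FBXL8, ACTA2 and the markers are further names, and so is TNFSF12, named after its values were seen. Coordinates are from GENCODE 29 and windows from RefSeq (GRCh38.p14).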

Additional observations from a re-analysis of the deposited data

How the results depend on the processing

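FAS kept its direction under all 14 alternatives and its call under 12. No member reached a fold of 1.5 together with the adjusted p under any of them. Without a filter on low counts edgeR passed 197 genes (141 with the fold), 0 members and 1 of the other pathway genes. DESeq2 passed 800 genes (219 with the fold) and 5 of the other pathway genes. On log2(FPKM + 1), limma passed 172 genes with the fold at a mean FPKM of at least 1. With no filter it passed 24 genes (23 with the fold), 0 members and 0 of the other pathway genes. That fit gave CHD7 -0.51 (adjusted p = 0.104), the highest adjusted p of the alternatives. The lowest for CHD7, 9.8e-34 in edgeR, came from the crossed pairing. Leaving out 1 sample at a time gave 610 to 1702 genes, 1 to 4 members and 3 to 7 of the other pathway genes, against 1373, 4 and 8 with all samples. CFLAR turned sign at 0.037 with library totals, at 0.076, 0.082 and 0.076 in limma on log2(FPKM + 1), log2(FPKM + 0.1) and without a filter, and at 0.042 without vector replicate 2 and 0.0048 without shCHD7_2 replicate 2, a range of -0.056 to 0.042 over the samples left out. In each case the cause was not tested.

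Samples with the same replicate number did not deviate together (correlation -0.252). Deviations within a group of 2 mirror each other, so samples with unlike numbers had this correlation with the opposite sign. With the replicate block, 755 genes, 1 member (FAS) and 3 of the other pathway genes passed, and the adjusted p was 0.234 for TNFRSF10B, 0.164 for TNFRSF10D and 0.209 for CASP8. The crossed pairing, chosen after seeing the data like the refits of single pathway genes, passed 3751 genes, 5 members and 23 of the other pathway genes. Replicates differed by more than counting error (chi-square per gene 3.94 in the vector group and 6.06 in the shCHD7_2 group). The adjusted p of TNFRSF10B and CASP8, 0.0417 and 0.0419 in edgeR, lay just under the threshold, so these 2 calls rest on small margins at this depth and number of samples.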

Other observations

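Short words in 3′ UTRs that an earlier scan of these same data had linked to lower expression (the word AGCTATT, the word GAAGCTA and the word GCTATTA) were looked up in the members, as a description only. By the longest 3′ UTR in GENCODE 29, at least 1 of the words is in 22.3% of the 11693 tested genes with an annotated 3′ UTR, in 54.8% of the 768 genes lower past the adjusted p and in 13.6% of the 583 higher. The words were picked from these data for their link to lower expression, so a high share in the lower genes was built in and tests nothing. These shares were also not matched for the length of the 3′ UTR. TNFRSF10D, the member that fell, holds none in 2282 bases, a length at which 27.5% of tested genes hold a word. Of the members that rose, FAS holds GAAGCTA in 1335 bases (18.1% at that length), TNFRSF10B holds AGCTATT in 2538 bases (31.2%) and CASP8 holds none in 1117 bases (13.9%). Of the others, CASP10 holds GAAGCTA in 4574 bases (52.3%) and CFLAR holds GCTATTA in 12714 bases (81.6%), and TNFRSF10A, TNFRSF1A, FADD and TRADD hold none (16.3%, 7.20%, 11.1% and 5.12%). Of the other pathway genes that fell, PEA15 holds none (23.5%) and neither does FAF1 (50.5%), and the 3′ UTR of CASP8AP2 was not analysed here. Of those that rose, TNFSF15 holds 2 words (59.9%) and BIRC3 holds 2 (27.5%), while TNFRSF21, PGAM5 and CXCL8 hold none (16.1%, 23.9% and 16.6%). These words share letters at their ends, so 2 words in 1 gene can come from 1 stretch, and their places were not compared. The part of these words in the changes was not tested.

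A gene's count, its FPKM and the total count of the sample together give its approximate effective length. This length was 3827 and 4617 bases for CASP10 in the vector samples and 4583 and 4400 in the shCHD7_2 samples, a spread of 1.21 times that separates the vector samples more than it separates the groups. For FAS it was 2660 and 2659 in the vector samples and 2721 and 2778 in the shCHD7_2 samples, and for CFLAR 6975 and 7000 against 6926 and 6624. TNFRSF10A, TNFRSF10B, TNFRSF10D, TNFRSF1A and FADD each varied by less than 1.01 times over the 4 samples. This length depends on the mix of transcripts to which the reads of a gene were assigned, and transcript values were not used here.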
